A study of Mus musculus with 69 samples.

Results

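Effectors of the integrated stress response were examined in mouse liver after acetaminophen, isoniazid or paraquat. Members were chosen by gene symbol from a list of 10: Atf4, Ddit3, Atf3, Atf5, Trib3, Asns, Chac1, Sesn2, Fgf21 and Gdf15. A probe set with the symbol was found for 9 of the 10, among 17306 probe sets of which 16464 carried a symbol. No probe set carried the symbol Gdf15, which was not analysed here. Each of the 9 genes was read by 1 probe set.

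Liver RNA was measured on Affymetrix arrays, 1 array per mouse, in male C57BL/6 mice, 10 weeks old, that had received 1 oral gavage. The middle of the left lateral lobe was used for RNA. Acetaminophen (APAP), an analgesic that injures liver in overdose, was given at 300 mg/kg and sampled after 2 days, or at 168.75, 225 or 300 mg/kg and sampled after 1 day. Isoniazid (INZ), an antibiotic against tuberculosis, was given at 88 mg/kg for 2 days, or at 22, 44 or 88 mg/kg for 1 day. Paraquat (PQ), a herbicide that passes electrons to oxygen, was given at 50 mg/kg for 2 days, or at 12.5, 25 or 50 mg/kg for 1 day. The doses of each compound are called low, medium and high. Vehicle mice of 2 days and of 1 day, labelled for APAP, served as controls for all 3 compounds, so the comparisons of a day shared their controls. The vehicle is not named in the labels. Every group had 5 mice, apart from PQ medium with 4.

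The integrated stress response begins when kinases that sense endoplasmic reticulum stress, amino acid shortage, heme shortage or viral RNA phosphorylate the translation factor eIF2 alpha. General translation then slows, while the mRNA of the transcription factor ATF4 is translated more, so ATF4 activity can change with little change of its mRNA. ATF4 and its partner CHOP, the product of Ddit3, bind composite C/EBP-ATF elements and activate genes of amino acid supply, redox balance, feedback and cell death, and in liver the hormone gene Fgf21.

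The 250 bases before the annotated start are shown for the members in which the core of such an element was found there. Ddit3 is shown as a member whose window of this length did not hold it. Bases farther upstream were not searched. The motif searched was TGATGNAA on both strands, with any base at N. It was present in 3.45% of 32841 RefSeq promoter windows of this length and in the windows of 4 of the 9 members. Sequences and coordinates are from RefSeq on GRCm38.p6, run 5′ to 3′ on the strand of the gene, and carry the match in capitals.
Atf3: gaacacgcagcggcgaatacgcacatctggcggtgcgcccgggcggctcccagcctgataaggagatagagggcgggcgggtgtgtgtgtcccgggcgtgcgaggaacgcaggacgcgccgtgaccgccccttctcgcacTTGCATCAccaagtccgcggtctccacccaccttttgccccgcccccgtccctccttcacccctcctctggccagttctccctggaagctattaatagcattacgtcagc
Asns: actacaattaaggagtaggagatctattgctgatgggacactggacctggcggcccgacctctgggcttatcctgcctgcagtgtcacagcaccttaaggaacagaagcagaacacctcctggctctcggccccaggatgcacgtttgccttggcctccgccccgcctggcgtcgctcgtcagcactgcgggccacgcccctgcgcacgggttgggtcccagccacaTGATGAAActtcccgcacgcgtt
Chac1: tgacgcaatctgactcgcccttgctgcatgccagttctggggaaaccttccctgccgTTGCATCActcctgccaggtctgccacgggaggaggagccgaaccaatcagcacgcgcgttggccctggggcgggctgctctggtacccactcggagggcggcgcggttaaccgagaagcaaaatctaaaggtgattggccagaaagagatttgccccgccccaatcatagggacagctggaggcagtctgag
Fgf21: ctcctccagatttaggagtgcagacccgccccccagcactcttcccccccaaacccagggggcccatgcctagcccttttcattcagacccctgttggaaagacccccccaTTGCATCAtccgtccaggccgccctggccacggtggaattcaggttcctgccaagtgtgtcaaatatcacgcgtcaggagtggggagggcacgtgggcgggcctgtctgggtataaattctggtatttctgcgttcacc
Ddit3: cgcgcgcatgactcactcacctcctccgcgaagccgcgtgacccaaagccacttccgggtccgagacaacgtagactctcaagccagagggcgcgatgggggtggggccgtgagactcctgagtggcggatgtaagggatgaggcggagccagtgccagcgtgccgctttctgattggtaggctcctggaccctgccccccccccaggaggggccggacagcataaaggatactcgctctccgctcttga
The Atf3 window lies at chr1:191183334-191183583 on the minus strand, with the match at -110 to -103 relative to the start. The Asns window lies at chr6:7693210-7693459 on the minus strand and its match at -23 to -16. For Chac1 the window is chr2:119350992-119351241 on the plus strand, with the match at -193 to -186. For Fgf21 it is chr7:45615491-45615740 on the minus strand, with the match at -139 to -132. In Atf3, Chac1 and Fgf21 the match read TTGCATCA, the reverse complement of an 8-base core, and in Asns it read TGATGAAA. The Ddit3 window, chr10:127290543-127290792 on the plus strand, did not hold these letters, nor did the windows of Atf4, Trib3, Sesn2 or Atf5, for which 2 starts were annotated. The site TGACGTCA, present in 1.55% of all windows, was in no member's window. Nor were the exact letters searched for the endoplasmic reticulum stress element, present in 0.113%. Variants of those letters were not searched, so a variant of this element in a window was not tested. The Ddit3 window held the opening letters of this element on the opposite strand, at -77 to -73, and windows of other members held them too. The letters CCAAT, which also open that element, were in 33.9% of all windows and overlapped no match shown here. A match describes the letters of a window and was not tested as a binding site.

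Values are deposited log2 signals, so a difference of 1 is a doubling, and the number of arrays limits their precision. Array medians lay between 4.23 and 4.56 and correlations between arrays, across probe sets, between 0.963 and 0.997. The label of liver fitted its markers, with vehicle means of 14.23 for Alb, 13.77 for Ttr and 13.61 for Cyp2e1. Arrays are called replicates in the order of the deposited records. Of the 69 arrays, 58 carried a title number up to 190 and 11 a higher one, and none of those 11 was a vehicle array. The meaning of that number was not stated. In RNA of whole liver, fewer cells of a type and less RNA per cell cannot be told apart. Nothing in the labels gave litter or cage, so p-values measure the spread between these mice. Replicate 1 of APAP low, of APAP high and of PQ high at 1 day differed from the other arrays of their groups, the low and PQ arrays by high and the APAP high array by near-vehicle signals of the members, and were picked with these signals known. Values with and without them are given where they matter.

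After 1 day, APAP at the high dose gave higher signals of Atf3 (4.26-fold), Ddit3 (1.94-fold), Fgf21 (1.71-fold), Atf5 (1.47-fold) and Atf4 (1.21-fold) than vehicle. These 5 of 9 members were called higher and 0 lower by limma, at an adjusted p under 0.05 over all probe sets. In this comparison 30.1% of all probe sets were called, 14.8% higher and 15.3% lower. The median log2 change of the 9 members was 0.55, and that of all probe sets was -0.045. In each of the other 11 treated groups 0 of 9 members were called. The background of calls was 0% at APAP low, 0.243% at APAP medium, 4.48% at APAP high after 2 days (2.85% higher and 1.63% lower) and 0.0231% at INZ high after 1 day (0.00578% higher and 0.0173% lower). It was 0% in the remaining groups of INZ and in all 4 of PQ. In a limma fit of the 10 arrays of APAP high and vehicle alone, 0 members passed at 1 day, with adjusted p between 0.066 and 0.1 for the 5 named.

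An unadjusted p under 0.05 was reached by 6 of 9 members at APAP high after 1 day, where 41.3% of all probe sets reached it. At APAP medium it was reached by 2 members (18.4% of all probe sets), at APAP low by 1 (6.39%) and at APAP high after 2 days by 0 (18.7%). For INZ the counts were 1 at the low dose (5.37%) and 0 at the medium dose (2.76%), the high dose (4.8%) and the high dose after 2 days (4.72%). For PQ they were 2 at the high dose after 2 days (3.63%) and 0 at the low (3.12%), medium (1.86%) and high dose (6.25%) after 1 day. A count of 0 does not show that no member changed.

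**Figure D1:**
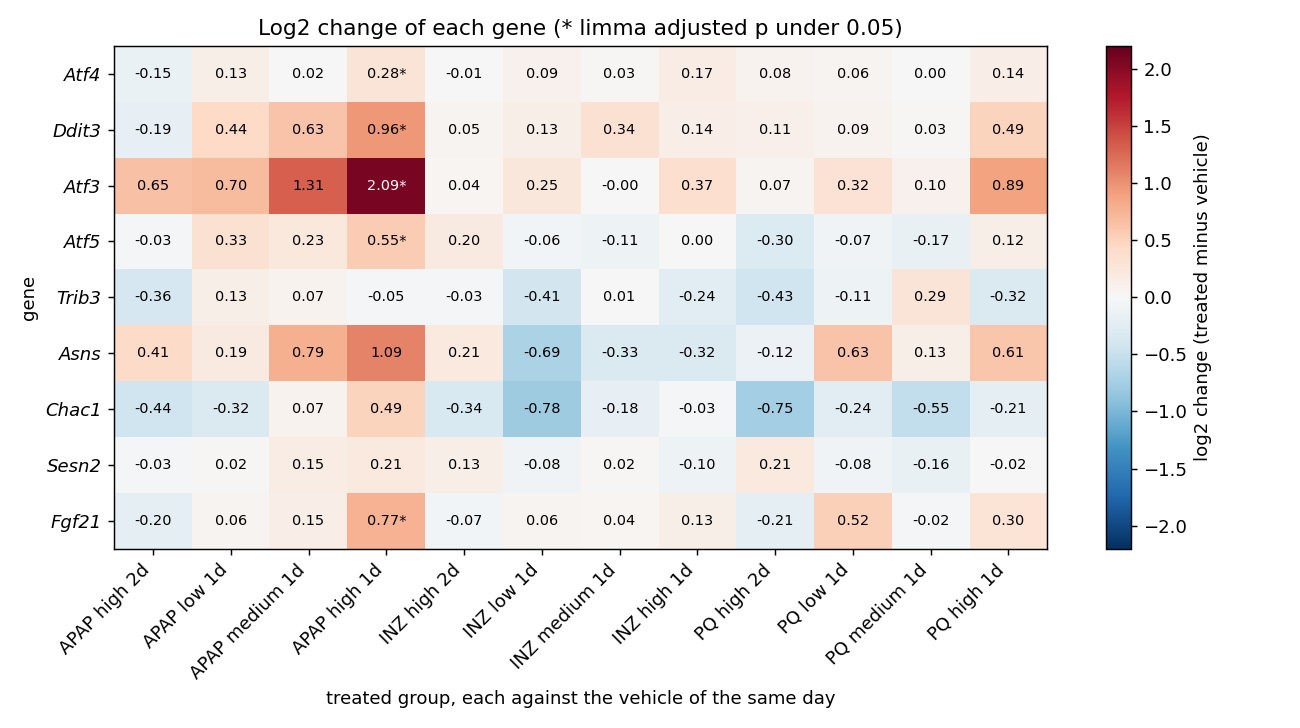
Log2 change of each of the 9 genes (down the page) in each of the 12 treated groups over its vehicle (across), red for higher and blue for lower, with a star where limma called the gene. The 5 stars stand in the column of APAP high at 1 day, and Atf3 has the highest value there, 2.09.

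Among the transcription factors, Atf4 mRNA was abundant and moved least. Its probe set (11911_at, gene at chr15:80255184-80257545, GRCm38.p6) ranked at the 92.8th percentile of mean signal. Atf4 signals were 9.53, 9.73, 9.96, 9.40 and 9.72 in mice given APAP high 1 day earlier, against 9.19, 9.37, 9.45, 9.38 and 9.56 in vehicle mice. The groups overlapped, with 3 treated mice above every vehicle mouse. Means were 9.67 ± 0.22 and 9.39 ± 0.14 (SD, n = 5 each), a log2 change of 0.28 (SE 0.10, limma adjusted p 0.028, exact permutation p 0.056, two-sided). The call ended without APAP high replicate 2, 3 or 5, or without vehicle replicate 1, with log2 changes of 0.26, 0.20, 0.26 and 0.23 and limma adjusted p of 0.07, 0.15, 0.071 and 0.094. It also ended in 2 other fits, with array weights per group (limma adjusted p 0.053) and with array medians set equal (0.19, limma adjusted p 0.12).

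Ddit3 encodes CHOP, which promotes cell death under prolonged stress. The gene (13198_at, chr10:127290793-127296291) had signals of 6.14, 7.66, 7.11, 6.34 and 7.37 in APAP high mice at 1 day, against 6.14, 5.75, 6.38, 5.70 and 5.87 in vehicle mice. Replicates 2, 3 and 5 lay above every vehicle mouse, while replicates 1 and 4 lay within the vehicle range. The means of 6.92 ± 0.66 and 5.97 ± 0.29 (SD, n = 5 each) differed by 0.96 (SE 0.27, 95% interval 0.42 to 1.49, limma adjusted p 0.0061, exact permutation p 0.032).

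Atf3, a factor of the same family that many kinds of stress induce, showed the largest change of the 9 genes. Its signals (11910_at, chr1:191170296-191183333) were 4.16, 7.42, 7.12, 4.55 and 7.43 in APAP high mice at 1 day, against 3.76, 4.20, 3.97, 4.07 and 4.24 in vehicle mice. The treated mice fell into 3 with signals above 7 and 2 near the vehicle range, of which replicate 4 was just above it. Means were 6.14 ± 1.63 and 4.05 ± 0.19 (SD, n = 5 each), and the log2 change was 2.09 (SE 0.53, 95% interval 1.03 to 3.15, limma adjusted p 0.0031, exact permutation p 0.024). The treated SD was wider than the pooled SD of all groups, 0.87. The vehicle mean lay under 4.23, the lowest median of any array, so the gene may not have been above background in vehicle mice and the size of the change is not exact.

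Atf5, an ATF4 relative that also controls mitochondrial stress genes, ranked at the percentile of 93 of mean signal (107503_at, chr7:44812256-44816658). It had signals of 9.42, 10.05, 10.30, 10.02 and 10.09 in APAP high mice at 1 day, against 9.38, 9.42, 9.37, 9.47 and 9.47 in vehicle mice. Here 4 of 5 treated mice stood well clear of a tight vehicle group, and replicate 1 lay inside it. The means of 9.98 ± 0.33 and 9.42 ± 0.05 (SD, n = 5 each) differed by 0.55 (SE 0.15, 95% interval 0.25 to 0.85, limma adjusted p 0.0048, exact permutation p 0.032).

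Fgf21 encodes a hormone that liver secretes under fasting and amino acid stress. Its probe set was the dimmest of the 9 (56636_at, chr7:45613890-45615490), with a vehicle mean over both days of 3.26. Signals were 3.07, 3.67, 4.42, 4.12 and 3.89 in APAP high mice at 1 day, against 2.69, 3.18, 2.87, 3.06 and 3.51 in vehicle mice, so 4 treated mice lay above every vehicle mouse. Means were 3.83 ± 0.51 and 3.06 ± 0.31 (SD, n = 5 each), a log2 change of 0.77 (SE 0.30, limma adjusted p 0.047, exact permutation p 0.024). The call ended without APAP high replicate 2, 3, 4 or 5 or vehicle replicate 1, 2, 3 or 4. In these 8 fits the log2 change lay between 0.62 and 0.81 and the limma adjusted p between 0.058 and 0.16. It also ended against both vehicle groups together (0.57, limma adjusted p 0.086) and in 3 other fits of all arrays, with array weights per group (limma adjusted p 0.12), array medians set equal (0.06) or quantile normalization (0.051).

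Asns makes asparagine and is a classical ATF4 target. Its signals (27053_at, chr6:7675165-7693209) were 4.74, 7.26, 6.73, 7.31 and 6.86 in APAP high mice at 1 day, against 5.90, 5.36, 4.92, 6.41 and 4.89 in vehicle mice. Replicate 1 was below every vehicle mouse and the other 4 were above every one. The log2 change of 1.09 (SE 0.47, 95% interval 0.15 to 2.02) did not pass (limma adjusted p 0.069, exact permutation p 0.095). It was 1.55 without APAP high replicate 1 (limma adjusted p 0.0064) and 1.31 without vehicle replicate 4 (limma adjusted p 0.042).

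Chac1, which degrades glutathione, had signals of 6.24, 7.45, 7.18, 6.15 and 7.15 in APAP high mice at 1 day, against 6.73, 6.57, 5.17, 6.78 and 6.47 in vehicle mice (69065_at, chr2:119351242-119354326). The same 3 treated mice that were high for Atf3 and Ddit3 lay above every vehicle mouse, yet the log2 change of 0.49 (SE 0.35) did not pass (limma adjusted p 0.3). It was 0.20 without vehicle replicate 3, the lowest vehicle array. Sesn2, a stress sensor that restrains growth signalling through mTORC1, had a log2 change of 0.21 (SE 0.11, limma adjusted p 0.16). Its means were 4.52 ± 0.20 and 4.31 ± 0.16 (230784_at, chr4:132492804-132510456, SD, n = 5 each). Sesn2 was dim, with a mean over all arrays of 4.28, at the percentile of 48.4, so the sizes of its changes are not exact. Trib3, a pseudokinase that feeds back on ATF4 and CHOP, stood at -0.05 (SE 0.31, 95% interval -0.68 to 0.58, limma adjusted p 0.92). Its signals of 6.42, 5.93, 5.99, 5.75 and 6.29 in APAP high mice lay within the vehicle range, 5.69 to 6.72 (228775_at, chr2:152337425-152344060).

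**Figure D2:**
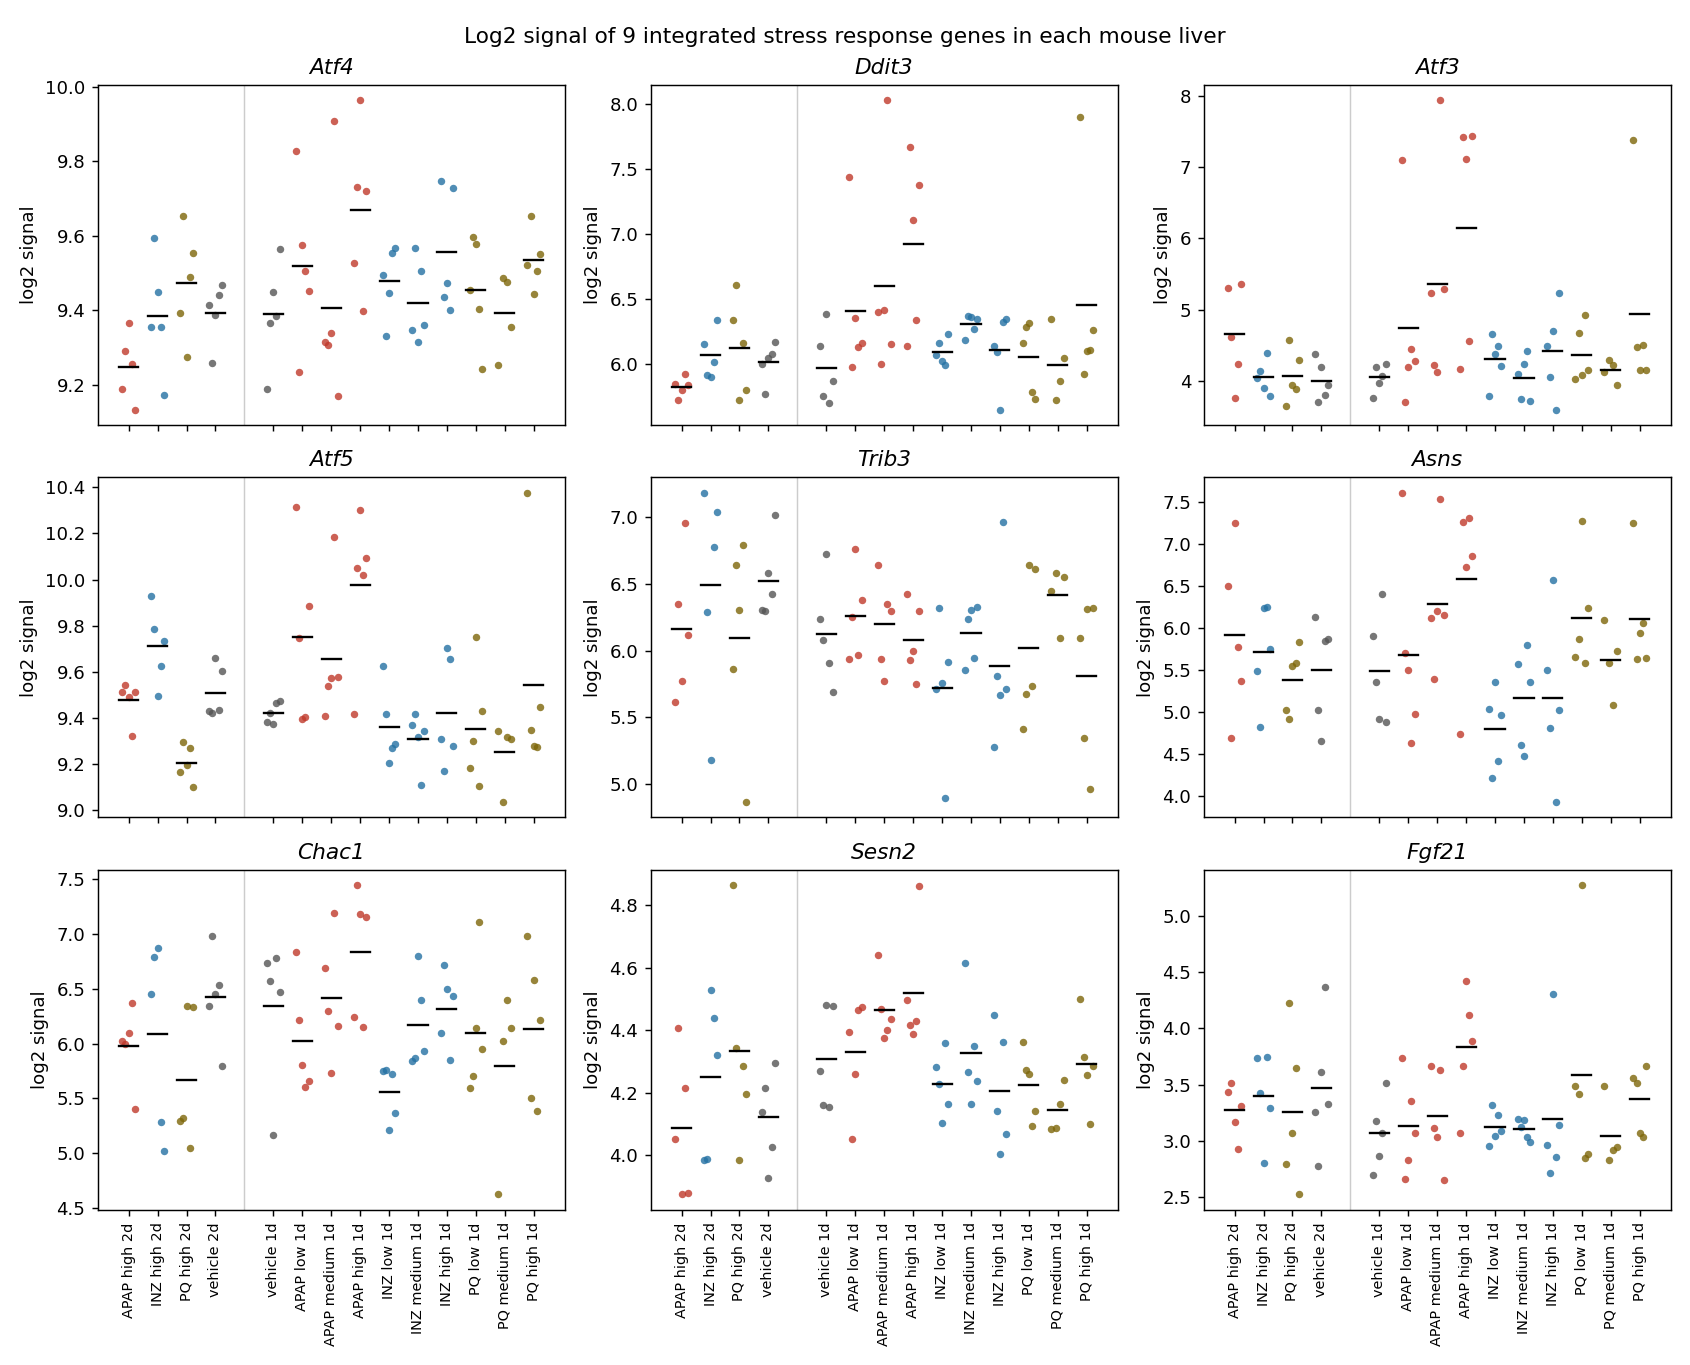
Log2 signal (vertical axis of each panel) of the 9 genes in every mouse, 1 point per mouse, with the group mean as a bar and the groups across. Groups of 2 days stand left of the grey line and those of 1 day right of it, with red for APAP, blue for INZ, ochre for PQ and grey for vehicle. Single mice of APAP low, APAP medium and PQ high reach 7.09, 7.93 and 7.38 for Atf3, near the 3 highest mice of APAP high, 7.12, 7.42 and 7.43.

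Most members were high in the same mice. Trib3 was above the vehicle range in 0 of 5 APAP high mice at 1 day, and Sesn2 in 2, replicates 1 and 5. In the 5 APAP high mice at 1 day, 27 of 45 member values lay above every vehicle value of that gene and 1 lay below. The share of all probe sets above the vehicle range in single mice was not counted. These counts therefore describe the members and do not set them apart from other genes. By mouse, 1, 7, 7, 4 and 8 of the 9 members were above the vehicle range. Single mice elsewhere looked alike: replicate 1 of APAP low had 7 members above, replicate 4 of APAP medium had 7, and replicate 1 of PQ high at 1 day had 7. Atf3, Ddit3, Asns, Chac1, Atf5 and Fgf21 were above the vehicle range in each of these 3 mice and in APAP high replicates 2, 3 and 5. In all other treated mice, at both days, the count was between 0 and 4. No member's groups were fully separated at APAP high after 1 day, where 2.99% of all probe sets were fully higher and 4.21% fully lower.

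**Figure D3:**
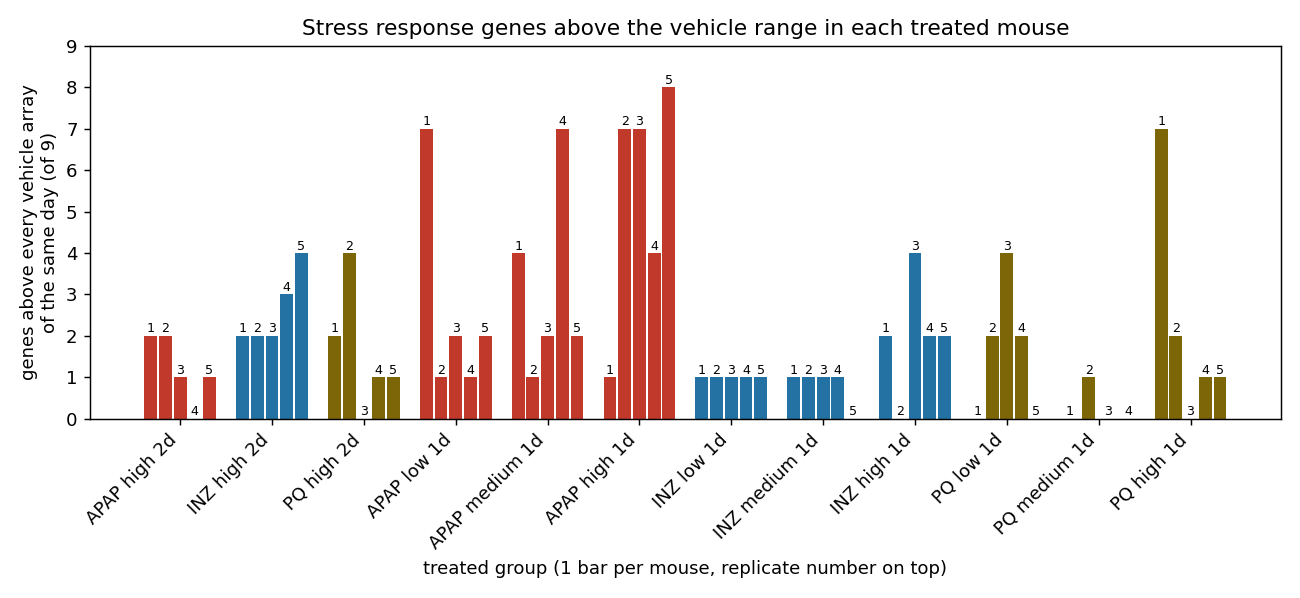
Number of the 9 genes whose signal lay above every vehicle array of the same day (vertical axis), 1 bar per treated mouse, with the replicate number on top and the groups across. Bars of 7 or 8 stand in APAP high at 1 day (3 mice) and in 1 mouse each of APAP low, APAP medium and PQ high at 1 day. The share of all probe sets above the vehicle range in single mice was not counted.

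At 1 day, markers of neutrophils and of monocytes or macrophages were high in the mice with high members, and above vehicle in some other mice. At APAP high after 1 day, 5 of 6 neutrophil markers and 7 of 9 monocyte or macrophage markers were called higher, with medians of 1.15 and 1.60, where 14.8% of all probe sets were called higher. The summed neutrophil signal was 6.89, 11.58, 10.66, 9.43 and 11.27 log2 units in APAP high mice, against 6.91 to 7.37 in vehicle mice. It was 11.06 in APAP low replicate 1, 9.86 in APAP medium replicate 4 and 10.99 in PQ high replicate 1, 6.79 to 7.01 in the other APAP low mice, 6.81 to 8.93 in the other APAP medium mice and 6.88 to 7.45 in the other PQ high mice. At 2 days it was 8.98, 7.30, 9.04, 6.96 and 8.04 in APAP high mice, in which 2, 2, 1, 0 and 1 members lay above the vehicle range. The summed monocyte or macrophage signal was 10.35, 12.62, 12.62, 11.83 and 12.87 in APAP high mice, against 10.55 to 10.94 in vehicle mice. It was 12.57 in APAP low replicate 1, 12.65 in APAP medium replicate 4 and 12.37 in PQ high replicate 1. In mice with fewer high members it was 11.54, 11.41 and 11.65 (APAP medium replicates 1, 3 and 5) and 11.56 (PQ high replicate 4). It ran from 10.52 to 10.69 in the other APAP low mice and from 10.63 to 10.86 in the other PQ high mice, and was 10.35 in APAP medium replicate 2. Sums of the other leukocyte lists did not rise alike. Their medians at APAP high after 1 day and in vehicle were 6.38 and 6.55 for T or NK cells. They were 5.31 and 5.40 for B cells, and 12.40 and 12.27 for Kupffer cells. Of the neutrophil markers, S100a8, Ngp and Mmp8 had vehicle means of 3.91, 3.17 and 3.25, and of the monocyte or macrophage markers Ccr2, Itgam and Chil3 had 3.32, 3.24 and 2.89, all under the lowest median of an array. Of the 7 hepatocyte markers 0 were higher and 1, Cyp2e1, was lower, by a log2 change of -0.29. The hepatocyte sum ran from 15.78 to 16.24 in APAP high mice and from 16.11 to 16.25 in vehicle mice. The cholangiocyte sum, over 4 markers of which 1 was called higher, ran from 5.90 to 7.25 in APAP high mice at 1 day (median 7.18) and from 5.80 to 6.23 in vehicle mice. Its highest value was 6.56 at APAP low, 6.78 at APAP medium and 7.20 at PQ high. The part of these cells in the member signals was not tested. At 2 days, 6 of 9 monocyte or macrophage markers were called higher, where 2.85% of all probe sets were, with 0 members called.

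Across APAP doses after 1 day the group means of several members stood in dose order. For Atf3 they were 4.05 ± 0.19 in vehicle, 4.74 ± 1.34 at the low, 5.36 ± 1.54 at the medium and 6.14 ± 1.63 at the high dose (SD, n = 5 each). The Atf3 signals at the low dose were 7.09, 3.70, 4.20, 4.44 and 4.28, and at the medium dose 5.23, 4.22, 4.12, 7.93 and 5.29. At the low dose 1 mouse lay far above the others, and at the medium dose 3 of 5 lay above every vehicle mouse, replicate 4 farthest. Ddit3 means were 5.97 ± 0.29, 6.41 ± 0.59, 6.60 ± 0.82 and 6.92 ± 0.66 in the same order. Asns followed with 5.50 ± 0.66, 5.69 ± 1.16, 6.28 ± 0.77 and 6.58 ± 1.06. Each step was smaller than the spread within a dose, and limma called 0 of 9 members between the high and medium doses (0.11% of all probe sets) and 0 between the medium and low doses (0%). Unadjusted, 3 and 0 members reached a p under 0.05 in these steps.

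The linear dose trend in mg/kg, expressed as the fitted log2 change between vehicle and the high dose, was called for 3 members, where 29.3% of all probe sets were called. These were Atf3 at 2.02 (SE 0.51, limma adjusted p 0.0034), Ddit3 at 0.93 (SE 0.26, limma adjusted p 0.0063) and Atf5 at 0.49 (SE 0.14, limma adjusted p 0.0087). In a fit of only the groups of the trend all 3 calls ended (limma adjusted p 0.082, 0.085 and 0.074). Asns at 1.09, Fgf21 at 0.65 and Atf4 at 0.22 had limma adjusted p of 0.058, 0.084 and 0.074. Without APAP high replicate 1 these 3 passed too (Asns 1.45, limma adjusted p 0.0072, Fgf21 0.80, 0.029, and Atf4 0.25, 0.044). At the medium dose alone, Atf3 stood at 1.31 (SE 0.53, limma adjusted p 0.2) and Ddit3 at 0.63 (SE 0.27, limma adjusted p 0.22). Without APAP medium replicate 4 they were 0.67 and 0.27 (limma adjusted p 0.7 and 0.75). At the low dose the largest member value, Atf3 at 0.70, was 0.11 without the 3 arrays that stood apart, of which APAP low replicate 1 is one. Trends of INZ and PQ were called for 0 of 9 members, against 0.00578% and 0% of all probe sets.

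After 2 days at the high APAP dose 0 members were called, with log2 changes between -0.44 (Chac1) and 0.65 (Atf3). Ddit3 signals were 5.84, 5.72, 5.80, 5.92 and 5.83 in APAP high mice, against 6.00, 5.77, 6.05, 6.08 and 6.17 in vehicle mice of that day. The treated values were tightly grouped, and 4 of 5 vehicle mice lay above all of them. The log2 change was -0.19 (SE 0.27, limma adjusted p 0.76, exact permutation p 0.048). Atf4 at -0.15 (SE 0.10, limma adjusted p 0.43) had an exact permutation p of 0.032. Atf3 signals of 5.30, 4.62, 3.76, 4.24 and 5.36, against 4.38, 3.71, 4.19, 3.80 and 3.94 in vehicle mice, gave a log2 change of 0.65 (SE 0.53, limma adjusted p 0.53). For Atf3, 3 treated mice were above every vehicle mouse. Of the 9 members 2 had values above 0, Atf3 and Asns, and the median was -0.15.

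The APAP effect at 2 days minus that at 1 day was below 0 for all 9 members, with a median of -0.67 and a range of -1.44 to -0.25, where the median of all probe sets was -0.0040. None passed (limma adjusted p from 0.071), where 2.81% of all probe sets were called, and 4 members had an unadjusted p under 0.05. These were Ddit3 at -1.14 (SE 0.38, limma adjusted p 0.073), Atf4 at -0.42 (SE 0.14, limma adjusted p 0.071), Atf5 at -0.59 (SE 0.21, limma adjusted p 0.096) and Fgf21 at -0.97 (SE 0.43, limma adjusted p 0.17). Atf3 stood at -1.44 (SE 0.75, limma adjusted p 0.26). Without APAP high replicate 1 of day 1, Ddit3 (-1.34), Atf5 (-0.73) and Atf4 (-0.46) passed, with limma adjusted p of 0.015, 0.015 and 0.025. Without replicate 4 of that group Ddit3 (-1.29) and Atf4 (-0.49) passed, with limma adjusted p of 0.027 and 0.02. The time differences of INZ and PQ were called for 0 of 9 members, against 0% of all probe sets in both.

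With INZ 0 of 9 members were called in any of the 4 groups, with log2 changes between -0.78 and 0.37. Chac1 at INZ low had the lowest value, -0.78 (SE 0.35, limma adjusted p 0.88, exact permutation p 0.048), from signals of 5.75, 5.76, 5.22, 5.72 and 5.37, against 6.73, 6.57, 5.17, 6.78 and 6.47 in vehicle mice. The treated mice were all below 4 of the vehicle mice and above the remaining one. Atf3 at INZ high after 1 day, at 0.37 (SE 0.53), was the highest INZ value.

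PQ at the high dose after 1 day had 1 mouse with 7 of 9 members above the vehicle range. Its Atf3 signals were 7.38, 4.48, 4.15, 4.51 and 4.15, against 3.76, 4.20, 3.97, 4.07 and 4.24 in vehicle mice. The log2 change of 0.89 (SE 0.53, limma adjusted p 0.79) was 0.27 without the 3 arrays that stood apart, which include PQ high replicate 1. Ddit3 behaved alike, with signals of 7.89, 5.92, 6.10, 6.11 and 6.26 and a log2 change of 0.49 (SE 0.27), or 0.13 without those arrays. Atf5 turned sign in the same fit, at 0.12 with them and -0.09 without, neither called. At PQ high after 2 days and at PQ medium, Atf5 lay apart from vehicle on the low side, while at PQ low it overlapped vehicle. The low side was not particular to PQ. Atf5 was below every vehicle mouse of 1 day in 4 of 5 INZ medium mice (0 above). For INZ low and INZ high, Atf5 was below in 3 of 5 mice each, with 1 and 2 above. Atf5 signals at PQ high after 2 days were 9.17, 9.29, 9.20, 9.27 and 9.10, against 9.43, 9.42, 9.66, 9.44 and 9.60 in vehicle mice. All treated mice were below all vehicle mice, as for 0.849% of all probe sets, and the log2 change was -0.30 (SE 0.15, limma adjusted p 1, exact permutation p 0.0079, the smallest that 5 against 5 allows). At PQ medium the 4 mice, at 9.35, 9.04, 9.32 and 9.31, also lay below every vehicle mouse of 1 day, as for 0.861% of probe sets, with a log2 change of -0.17 (SE 0.16, limma adjusted p 1).

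Compounds were also set against each other at their high doses, which differ in mg/kg. After 1 day, 5 of 9 members were higher with APAP than with INZ, where 24.7% of all probe sets were called. Atf3 differed by 1.72 (SE 0.53, limma adjusted p 0.013), Asns by 1.41 (SE 0.47, limma adjusted p 0.021), Ddit3 by 0.82 (SE 0.27, limma adjusted p 0.02), Atf5 by 0.55 (SE 0.15, limma adjusted p 0.0055) and Sesn2 by 0.31 (SE 0.11, limma adjusted p 0.037). In a fit of only the groups compared all 5 calls ended, with limma adjusted p of 0.13 for Atf3, 0.14 for Asns, 0.11 for Ddit3, 0.097 for Atf5 and 0.12 for Sesn2. In the fit of all groups, Atf5 passed without each of the 10 arrays in turn. The Atf3 call ended without APAP high replicate 2, 3 or 5 (1.40, 1.48 and 1.40, limma adjusted p 0.074, 0.065 and 0.08). The Ddit3 call ended without the same 3 arrays or INZ high replicate 3 (0.63, 0.77, 0.70 and 0.70, limma adjusted p 0.11, 0.062, 0.086 and 0.064). The Asns call ended without APAP high replicate 2, 3, 4 or 5 or INZ high replicate 4, with limma adjusted p between 0.053 and 0.097. The Sesn2 call ended without APAP high replicate 2 or 5 or INZ high replicate 2, 3 or 5, with limma adjusted p between 0.052 and 0.19, and with array weights per group (limma adjusted p 0.11), array medians set equal (0.24, limma adjusted p 0.1) or quantile normalization (0.23, limma adjusted p 0.13). Between APAP and PQ 0 members were called, where 0.387% of probe sets were, though all 9 differences were above 0. The largest was Atf3 at 1.20 (SE 0.53, 95% interval 0.14 to 2.27, limma adjusted p 0.15), and the smallest limma adjusted p, 0.074, was that of Atf5 at 0.43 (SE 0.15). Without PQ high replicate 1, the PQ mouse with high members, the differences of Atf3, Ddit3 and Atf5 were 1.82, 0.83 and 0.64 and passed (limma adjusted p 0.0067, 0.011 and 7.7e-04). Atf3 also passed without APAP high replicate 1 or 4 (1.70 and 1.60, limma adjusted p 0.016 and 0.038), and Atf5 without replicate 1 (0.57, limma adjusted p 0.0049). PQ high replicate 1 was singled out with its values known.

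Between INZ and PQ after 1 day 0 members were called, against 0.0289% of probe sets. After 2 days 0 of 9 members were called between APAP and INZ (3.83% of probe sets), between APAP and PQ (3.53%) and between INZ and PQ (0%). In the last of these, Atf5 was 0.51 higher with INZ (SE 0.15, unadjusted p 0.0013, limma adjusted p 0.37) and its groups did not overlap. INZ mice had Atf5 signals of 9.93, 9.78, 9.49, 9.62 and 9.74 at 2 days, and PQ mice 9.17, 9.29, 9.20, 9.27 and 9.10.

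By group mean, APAP high at 1 day held the highest place of the 14 groups for Atf3, Ddit3, Asns, Chac1, Sesn2, Atf5, Fgf21 and Atf4. For Atf3 it was followed by APAP medium (5.36), PQ high (4.93) and APAP low (4.74) at 1 day and APAP high at 2 days (4.65), and the other 9 groups lay between 4.00 and 4.41. These neighbours differed by less than the SD of either group. For Ddit3 the order was APAP high, APAP medium (6.60), PQ high (6.46) and APAP low (6.41), then INZ medium at 6.30. For Atf5 the next places were held by APAP low (9.75), INZ high at 2 days (9.71) and APAP medium (9.66). Asns had its next places at APAP medium (6.28), PQ low (6.13) and PQ high (6.11), and its lowest at INZ low. Trib3 ran otherwise, with vehicle at 2 days highest (6.52 ± 0.30), INZ high at 2 days next (6.49 ± 0.81) and INZ low lowest (5.72 ± 0.52).

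Over the 14 group means, the gene outside the list with the highest Pearson r was Ezr for Atf3 (0.990), Wdr55 for Ddit3 (0.951), Ptpn12 for Asns (0.941), Chic2 for Chac1 (0.910) and B3galt6 for Sesn2 (0.925). It was Lrfn3 for Atf5 (0.952), Nfxl1 for Fgf21 (0.877), Mrpl24 for Atf4 (0.923) and Klhdc3 for Trib3 (0.845). Among the members, Ddit3 and Sesn2 were most alike (r = 0.874), then Atf3 and Ddit3 (0.843), while the closest member to Trib3, Atf5, reached 0.175. The group means of Sesn2, a dim gene, spanned only 0.43. These values describe 14 means that share arrays, normalization and the few mice with high signals.

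Other genes of the pathway were counted from lists, where rose and fell stand for called higher and called lower by limma. Of all probe sets, 14.8% were called higher and 15.3% lower in the comparison that follows. At APAP high after 1 day, 13 of 16 genes of the IRE1 and ATF6 arms, which run beside the ATF4 arm in endoplasmic reticulum stress, rose and 0 fell. Among them, Syvn1, a ubiquitin ligase of that compartment, rose by 1.10, the chaperone Hspa5 by 0.94, its cofactor Dnajc3 by 0.69 and Sel1l by 0.37. Their median log2 change was 0.69, against -0.045 for all probe sets. Of 10 NRF2 targets 7 rose and 0 fell (median 0.48), with Hmox1 at 1.75, Srxn1 at 1.71, Nqo1 at 0.82 and Txnrd1 at 0.37. Of 15 p53 targets 8 rose and 0 fell (median 0.34), with Cdkn1a at 2.89, Btg2 at 1.31, Pmaip1 at 1.00 and Eda2r at 0.66.

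The other lists held genes closer to ATF4, counted in the same comparison, where 14.8% of all probe sets were called higher and 15.3% lower. Of 16 genes of amino acid metabolism and transport 8 rose and 3 fell (median 0.26). Psat1, of serine synthesis, rose by 3.50 and Mthfd2, of mitochondrial folate metabolism, by 1.36, while Cth, which makes cysteine, fell by 1.05 and Shmt2 by 0.86. Of 13 tRNA synthetases 7 rose and 0 fell (median 0.36), with Wars at 0.69, Lars at 0.68, Nars at 0.62 and Sars at 0.39. Of 14 other stress targets of ATF4 and CHOP 6 rose and 1 fell (median 0.20), with Nupr1 at 1.69, the mTORC1 inhibitor Ddit4 at 1.58, the oxidase Ero1a at 1.44 and the translation repressor Eif4ebp1 at 0.39. Of 12 eIF2 alpha kinases and translation factors 4 rose and 2 fell (median 0.22). Those with the smallest p were the kinases Eif2ak3 (PERK) at 0.50 and Eif2ak2 (PKR) at 0.39, and the exchange factor subunits Eif2b5 at 0.36 and Eif2b2 at 0.38.

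PPAR alpha targets were fatty acid genes, and PPAR alpha itself can also drive Fgf21. Of these targets 2 of 14 were higher and 3 lower, with Pdk4 at 1.27, Plin2 at 0.60, Ehhadh at -1.02 and Acot1 at -1.25. Mitochondrial chaperones and proteases showed 1 of 10 higher, Clpx at 0.75, and 2 lower, the protease Oma1 at -0.36 and Yme1l1 at -0.22. Background in this comparison was 14.8% higher and 15.3% lower. At APAP medium 3 of the 120 measured entries of these 9 lists were called (2.5%, against 0.243% of all probe sets, with Slc7a11 and Bbc3 each in 2 lists), Psat1 at 3.49, Nqo1 at 1.36 and Ccng1 at 0.42. After 2 days 6 of 120 were called at the high dose, 5%, near the 4.48% of all probe sets: Slc1a4 at 0.71 was higher, and Acot1 at -1.47, Ppp1r15a at -0.47, Slc6a9 at -0.46, Cebpb at -0.45 and Dnaja3 at -0.33 were lower. In the 8 groups of INZ and PQ 0 were called.

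**Figure D4:**
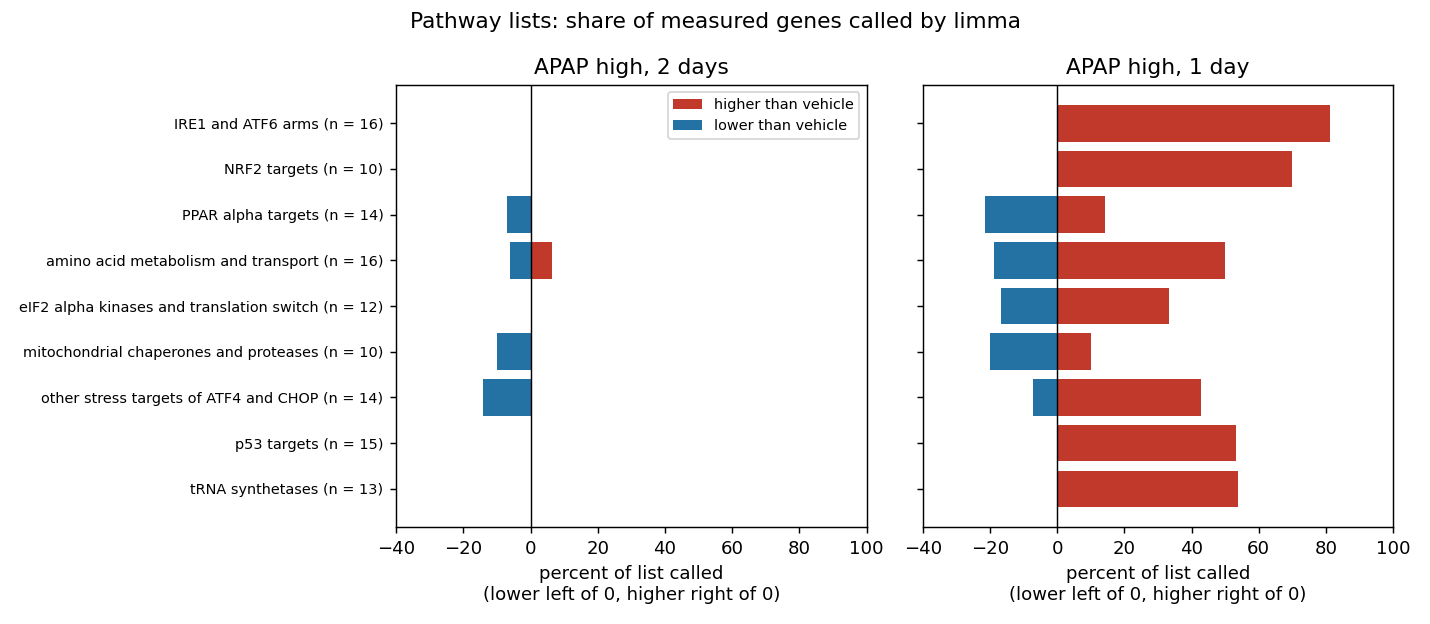
Share of each list's measured genes that limma called at APAP high against its vehicle, in percent, higher to the right of 0 and lower to the left, after 2 days (left panel) and 1 day (right panel). The IRE1 and ATF6 arms have the longest bar at 1 day, 13 of 16, and 0 of 16 at 2 days.

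In the direct test of the time difference, 9 genes of these lists passed, where 2.81% of all probe sets did. Cth differed by 1.11, and lower at 2 days were Eif2ak3 (-0.63), Gsr (-0.61), Sel1l (-0.57), Sars (-0.51), Eif2b5 (-0.51), Txnrd1 (-0.44), Clpp (-0.40) and Eif2s2 (-0.36). Eif2ak3 encodes PERK, the kinase that phosphorylates eIF2 alpha under endoplasmic reticulum stress, and Eif2b5 is a subunit of the exchange factor that phosphorylated eIF2 inhibits.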

How the data were processed

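Liver RNA of 69 mice was hybridised to 1 array each, where the design text counts 70. The deposited table held log2 signals, 1 per probe set and array, made by the authors with RMA, per the submitters' processing notes. RMA corrects background, normalizes quantiles and summarises probes, and its version is not given in the sources used here. The values ran from 1.87 to 14.34 and were used without further normalization. Gene symbols came from the platform annotation, and coordinates and promoters from RefSeq (GRCm38.p6).

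With limma 3.58.1 (R 4.3.3), 1 mean per group was fitted to each of 17306 probe sets on all 69 arrays, with 55 residual and 3.5 prior degrees of freedom. Two-sided moderated tests were adjusted by Benjamini-Hochberg over all probe sets and called at 0.05. The spread was shared by all groups, so a p can be too small for groups that vary more than others. Exact permutation tests of single genes had a smallest p of 0.0079 for 5 against 5. Sums of markers were taken on the linear scale and given as log2. The script was run on simulated normal data with the same spread in every group, which cannot test p-values where group spreads differ. Alternatives covered array weights, per group too, centring, quantile normalization, dim genes, the title number, the vehicles and arrays left out. All 9 measured members are named, with the 4 genes of smallest p of each pathway list. The members and lists were chosen with earlier results of these data known. Plots used matplotlib 3.10.9 in Python 3.11.15.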

Additional observations from a re-analysis of the deposited data

Results flagged for a closer look

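Among the values of each gene in each group, 17 sets held an array far from the others of its group, 13 on the high side and 4 on the low side. Chance gives about 1 in 20 sets where values are normal. The sets are not independent, as the same mice recur across genes, and no cause was tested. PQ high replicate 1 at 1 day was such an array for 4 genes, with Atf3 at 7.38, Ddit3 at 7.89, Asns at 7.25 and Atf5 at 10.38. APAP medium replicate 4 was one for Ddit3 at 8.03, Atf5 at 10.18 and Atf4 at 9.91. APAP low replicate 1 was one for Atf3 at 7.09 and Ddit3 at 7.44. At APAP high after 1 day, replicate 1 was far below its group for Asns, at 4.74, and replicate 5 far above for Sesn2, at 4.86. Low arrays were APAP high replicate 4 at 2 days for Atf5 (9.32), PQ medium replicate 2 for Atf5 (9.04) and vehicle replicate 3 at 1 day for Chac1 (5.17). Fgf21, the dimmest member, had 3 single high arrays: INZ high replicate 3 at 1 day (4.30), PQ low replicate 3 (5.28) and PQ medium replicate 1 (3.48). In INZ high replicate 3 and PQ low replicate 3, Asns was also the highest of its group, at 6.58 and 7.27.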

How the results depend on the processing

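No member called at APAP high after 1 day changed sign under any alternative. The count of 5 members called became 0 in a fit of the 10 arrays compared, 3 with array weights per group and 3 after centring, and 3 to 6 without 1 array. In the fit of 10 arrays the limma adjusted p was 0.071 for Atf3, 0.07 for Ddit3 and 0.066 for Atf5, which passed in every other alternative and without each of the 10 arrays. The APAP dose trend gave 7 with array weights, 5 in arrays numbered up to 190, 0 in the groups compared, 6 with both vehicles, 6 without the 3 arrays that stood apart, and 3 to 6 without 1 array. For the APAP time difference, with 0 called, the same alternatives in order gave 5, 4, 0, 5 and 5, with 2 without dim genes and 0 to 3 without 1 array. APAP high against APAP medium gave 5 with array weights, 3 without the 3 arrays and 0 to 2 without 1 array. APAP against INZ at 1 day gave 0 in the groups compared and 1 to 6 without 1 array. APAP against PQ at 1 day gave 8 with array weights, 6 up to 190, 5 without the 3 arrays, 1 without dim genes and 0 to 3 without 1 array. APAP medium against vehicle gave 2 up to 190 and 1 without the 3 arrays, and INZ against PQ at 2 days gave 1 with array weights and 1 without the 3 arrays. The 3 arrays were picked on the members' signals, and APAP medium replicate 4 was kept, so the added calls without them are no support. The cause of these differences was not tested. A smaller fit changes both the number of arrays and the groups that share a spread. Signals of Fgf21, Sesn2 and Atf3 near the dim end limit their sizes. No paired analysis was possible because each array held a different mouse and the numbers of replicates pair nothing.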
